A study of Homo sapiens with 6 samples.

Results

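The 10 genes described here make and reshape fatty acids: ACLY and ACSS2 supply acetyl-CoA, ACACA and ACACB make malonyl-CoA, FASN builds palmitate, ELOVL5 and ELOVL6 lengthen the chain, and SCD, FADS1 and FADS2 put double bonds into it. They were picked by symbol as the core enzymes of the pathway, with earlier results of these data known. All 10 were found among the 58735 genes of the count table. Expression was compared between 3 control libraries (labelled shNc) and 3 libraries from cells with stable CNOT7 knockdown by shRNA, all of the human colorectal cancer line SW480 and none treated. CNOT7 is a deadenylase subunit of the CCR4-NOT complex, which shortens the poly(A) tails of mRNAs. The cell line is SW480 by the labels and HCT116 by the text of the paper, which leaves the assignment to groups untouched. The study describes a lentiviral vector and a pair of shRNAs, but the labels do not give the shRNA of each knockdown library, so any difference between shRNAs cannot be told apart from differences between libraries. No source states that the numbered libraries came from separate cultures, and the p-values measure only the spread between these libraries.

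De novo fatty acid synthesis runs in the cytosol from citrate or acetate to acetyl-CoA, then through the carboxylase step to malonyl-CoA, and ends with palmitate. Elongases and desaturases of the endoplasmic reticulum turn palmitate into longer and unsaturated chains, while FADS1, FADS2 and ELOVL5 mainly act on the polyunsaturated chains taken up from the diet or medium. Many colorectal cancers express this pathway strongly, and its genes are classical targets of the sterol regulatory element binding proteins.

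The libraries held 23788451 to 25982493 counts in the control group and 27523812 to 29104872 in the knockdown group. CNOT7 itself was at 169.1, 191.1 and 175.8 CPM (counts scaled by library size, after TMM normalization) in the control libraries and at 43.4, 47.2 and 38.6 CPM in the knockdown libraries. Its level in the knockdown was 24.1% of control (log2 fold change -2.05, SE 0.0734, adjusted p = 2.64e-12, edgeR quasi-likelihood test). The epithelial markers EPCAM, CDH1, KRT8, KRT18, CDX2 and VIL1 were expressed, whereas KRT20 and CDX1 had 0 to 4 counts in each library. Of the 6 markers tested, CDH1 and VIL1 were higher and KRT8 was lower in the knockdown. The summed epithelial markers ranged from 4867 to 5220 CPM in control and from 4534 to 5015 CPM in knockdown libraries. The summed markers of other cell types ranged from 7.95 to 10.7 CPM and from 10.5 to 12.1 CPM, most of it COL1A1, with DCN and ADIPOQ at 0 in all 6 libraries and 7 of 9 markers below the filter on low counts. Their part in the results was not tested, and in bulk RNA fewer cells of a kind and less RNA per cell cannot be told apart.

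Transcripts of fatty acid synthase and of all 3 desaturases were lower in CNOT7 knockdown, and the acetyl-CoA suppliers moved in opposite directions. SCD was at 70.0% of control, FADS2 at 69.6%, FADS1 at 72.3%, FASN at 77.2% and ACLY at 84.9%, while ACSS2 rose to 127% of control. The carboxylases ACACA and ACACB and the elongases ELOVL5 and ELOVL6 did not pass the test. In total 1 of the 10 genes was higher and 5 were lower at an adjusted p under 0.05, beside 13.3% higher and 11.9% lower (25.2% in either direction) among all 17574 genes tested. For 7 of the 10 genes the control and knockdown libraries did not overlap, 2 of them higher and 5 lower, beside 38.8% of all genes tested. The median log2 fold change was -0.14 over the 10 genes and 0.00 over all genes tested. All 10 genes passed the filter on low counts.

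**Figure D1:**
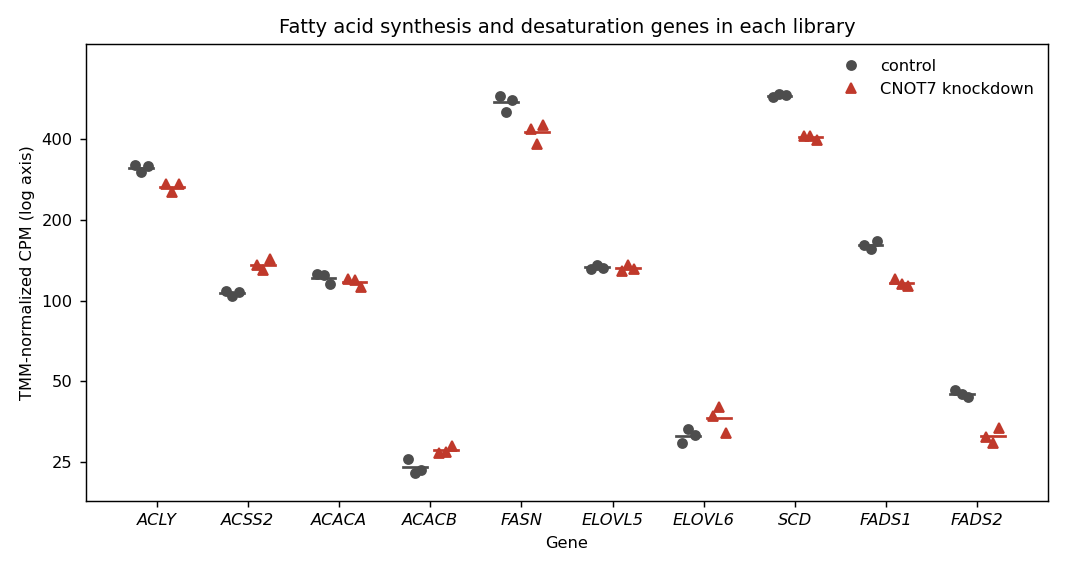
TMM-normalized CPM (log axis) of the 10 genes in each library, with grey circles for the 3 control and red triangles for the 3 CNOT7 knockdown libraries and a line at each group mean. All knockdown libraries lie below all control libraries for ACLY, FASN, SCD, FADS1 and FADS2 and above them for ACSS2 and ACACB.

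**Figure D2:**
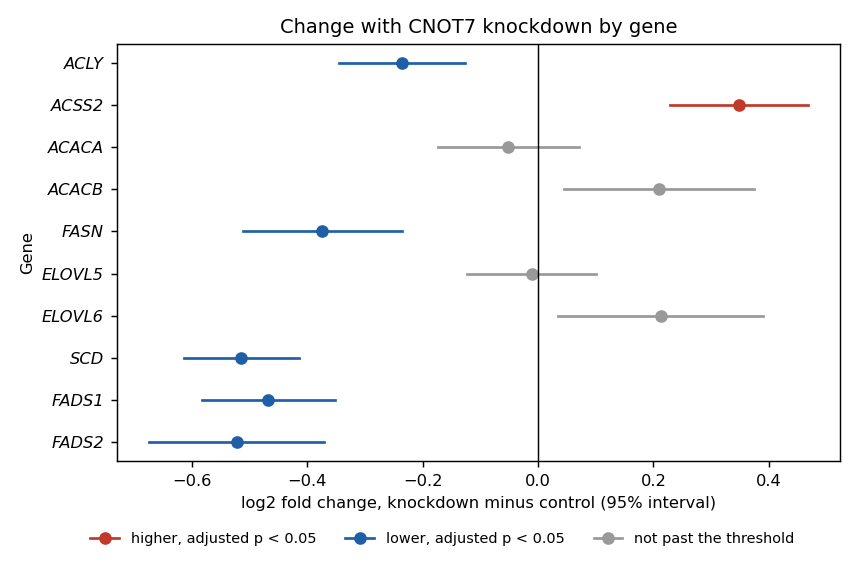
log2 fold change of each gene, knockdown minus control, with its 95% interval from the edgeR fit. The 3 desaturases lie between -0.52 and -0.47, ACSS2 lies at 0.35, and the intervals of ACACA and ELOVL5 span 0.

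Since 5 of these genes fell together and 1 rose, the DNA before their starts was looked up. RefSeq promoter entries on GRCh38.p14 were found for 9 of the 10 genes (15 entries, FASN without one). To show what these promoters hold, the stretch before a start that carries no GENCODE exon is printed for the 4 genes past the test in which it reaches 100 bases. Capitals mark CCAAT boxes (CCAAT, or ATTGG on the other strand) and GC boxes (GGGCGG, or CCGCCC on the other strand). The SCD stretch (chr10:100346983-100347123, plus strand) lies just before the annotated gene and ends 109 bases before the RefSeq start. The ACLY stretch (chr17:41919023-41919272, minus strand) ends at its RefSeq start and lies in an intron of the longer annotated gene. The FADS2 stretch (chr11:61816154-61816255, plus strand) ends 148 bases before the start, in intronic sequence of FADS2 and FADS1, whose spans overlap. Another RefSeq start of FADS2, with its window at chr11:61815953-61816202, falls inside this stretch. The later part of the stretch, with its marked GC box, thus lies after that other start. The ACSS2 stretch (chr20:34874739-34874941, plus strand) ends 47 bases before the start, in an intron of the longer annotated gene. The sequences run 5′ to 3′ on the strand of the gene.
SCD: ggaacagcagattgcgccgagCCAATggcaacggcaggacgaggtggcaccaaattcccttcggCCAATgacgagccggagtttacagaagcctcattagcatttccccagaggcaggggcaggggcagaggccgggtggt
ACLY: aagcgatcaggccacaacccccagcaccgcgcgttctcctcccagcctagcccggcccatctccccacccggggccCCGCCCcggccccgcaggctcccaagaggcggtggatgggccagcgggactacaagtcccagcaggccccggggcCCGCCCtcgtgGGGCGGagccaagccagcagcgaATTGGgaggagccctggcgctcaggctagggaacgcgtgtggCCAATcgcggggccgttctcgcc
FADS2: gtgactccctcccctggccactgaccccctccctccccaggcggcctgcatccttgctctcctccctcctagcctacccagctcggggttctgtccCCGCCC
ACSS2: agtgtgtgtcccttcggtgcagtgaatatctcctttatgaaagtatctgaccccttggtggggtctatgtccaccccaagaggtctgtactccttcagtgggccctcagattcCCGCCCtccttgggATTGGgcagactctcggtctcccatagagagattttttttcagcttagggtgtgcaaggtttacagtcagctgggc

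SCD showed 2 CCAAT boxes and no GC box, and ACLY showed 2 CCAAT boxes and 3 GC boxes. FADS2 showed 1 GC box, and ACSS2 showed 1 box of each kind. These counts cover the printed stretches only. The full 250 bases before the SCD start held 2 CCAAT boxes and 2 GC boxes. Another RefSeq start of ACSS2, held by 8 GENCODE transcripts against 4, had 0 CCAAT boxes and 3 GC boxes in its 250 bases. Another start of ACLY, held by 7 transcripts against 1, had 2 CCAAT boxes and 4 GC boxes. The other start of FADS2, held by 0 transcripts against 1, had 0 CCAAT boxes and 0 GC boxes. In the 250 bases before all 15 starts, 8 windows of 6 genes held a CCAAT box, beside 32.0% of all 35116 RefSeq windows. A GC box was held by 11 windows of 8 genes, beside 42.6% of all windows. The E-box CACGTG occurred in 1 window, that of ELOVL5, beside 6.34% of all windows. One form of the sterol regulatory element, TCACNCCAC on either strand, occurred in 0 of the 15 windows and in 0.883% of all windows. At so small a share, 0 of 15 cannot set these windows apart from others. Other forms of the element were not searched and FASN had no window, so the count does not show that these genes lack the element. Some windows of a gene overlap, so they are not independent, and a match describes letters and not a bound site.

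ACLY (ENSG00000131473, chromosome 17, 41866908 to 41930542 on GRCh38, minus strand) cleaves citrate exported from mitochondria into acetyl-CoA and oxaloacetate. It was at 318.1, 301.8 and 316.6 CPM in control and at 270.8, 253.0 and 271.4 CPM in knockdown libraries. Every knockdown library was below every control library. The mean fell from 312 ± 9.01 to 265 ± 10.4 CPM (SD, n = 3 in each group, as for the other means), a log2 fold change of -0.24 (SE 0.0518, 95% interval -0.35 to -0.13, adjusted p = 0.00282). GENCODE places an antisense gene, AC125257.2, over 156 of its exonic bases, and that gene had 0 counts in all libraries.

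ACSS2 (ENSG00000131069, chromosome 20, 34872146 to 34927962, plus strand) makes acetyl-CoA directly from acetate and is known for its use under nutrient or oxygen shortage. Control libraries gave 108.6, 104.3 and 107.5 CPM and knockdown libraries 136.1, 129.4 and 142.4 CPM. All 3 knockdown libraries were above the control range. The mean rose from 107 ± 2.20 to 136 ± 6.48 CPM (log2 fold change 0.35, SE 0.0564, 95% interval 0.23 to 0.47, adjusted p = 2.06e-04). Of the 10 genes, ACSS2 alone was called higher. Within each library, the ratio of ACSS2 to ACLY in counts per kilobase was 0.331, 0.335 and 0.329 in control and 0.487, 0.496 and 0.508 in knockdown. The mean ratio was 0.332 ± 0.00307 and 0.497 ± 0.0109, and the groups were far apart. This pair and the pairs given for the later steps were chosen after the values of the genes were known, so their ratios are given without a test.

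The carboxylase step, which commits acetyl-CoA to fatty acids, has a cytosolic enzyme, ACACA, and an enzyme at the mitochondrial surface, ACACB, whose malonyl-CoA restrains fatty acid import for oxidation. ACACA (ENSG00000278540, chromosome 17, 37084988 to 37406818, minus strand) was at 125.1, 124.2 and 115.0 CPM in control and at 120.1, 119.5 and 112.0 CPM in knockdown libraries. These ranges overlapped, and the means were 121 ± 5.56 and 117 ± 4.53 CPM. The log2 fold change was -0.05 (SE 0.0577, 95% interval -0.17 to 0.07, adjusted p = 0.567). That interval does not reach the fitted change of ACLY but overlaps the interval of ACLY (-0.35 to -0.13). The difference between these genes was not tested.

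ACACB (ENSG00000076555, chromosome 12, 109116595 to 109268226, plus strand) was at 25.8, 22.8 and 23.3 CPM in control and at 27.2, 27.3 and 28.7 CPM in knockdown libraries. The groups did not overlap, with all knockdown libraries higher. The means were 23.99 ± 1.59 and 27.7 ± 0.842 CPM, and the log2 fold change of 0.21 (SE 0.0782, 95% interval 0.04 to 0.37) did not pass the test (adjusted p = 0.0598). Without the library control 1, the highest of its group, it passed with a log2 fold change of 0.26 and an adjusted p of 0.0476. Taking out the highest control library raises the difference by itself. It did not pass when any other library was left out (adjusted p from 0.0619 to 0.207). The ratio of ACACB to ACACA in counts per kilobase was 0.185, 0.165 and 0.182 in control and 0.203, 0.205 and 0.230 in knockdown libraries. The ratio was higher in every knockdown library than in any control library.

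FASN (ENSG00000169710, chromosome 17, 82078333 to 82098332, minus strand) is the single large enzyme that joins malonyl-CoA units into palmitate. It was at 578.5, 502.4 and 559.3 CPM in control and at 433.8, 380.9 and 451.2 CPM in knockdown libraries. FASN varied more within each group than SCD, and still no knockdown library reached the lowest control library. The mean fell from 547 ± 39.6 to 422 ± 36.6 CPM (log2 fold change -0.37, SE 0.0652, 95% interval -0.51 to -0.24, adjusted p = 4.14e-04). In both groups the library numbered 2 was the lowest for FASN, ACLY and ACSS2 and the highest for ELOVL5 and ELOVL6.

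Among the elongases, ELOVL6 lengthens palmitate to stearate, and ELOVL5 acts on polyunsaturated and monounsaturated chains. ELOVL5 (ENSG00000012660, chromosome 6, 53267398 to 53349179, minus strand) was at 131.3, 136.1 and 131.6 CPM in control and at 128.8, 135.8 and 131.3 CPM in knockdown libraries. The ranges nearly coincided, with means of 133 ± 2.67 and 132 ± 3.53 CPM. Its log2 fold change was -0.01 (SE 0.0533, adjusted p = 0.906), and its 95% interval of -0.12 to 0.10 does not reach the changes of the called genes.

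ELOVL6 (ENSG00000170522, chromosome 4, 110045846 to 110199199, minus strand) was at 29.6, 33.2 and 31.6 CPM in control and at 37.1, 40.1 and 32.2 CPM in knockdown libraries. The groups overlapped because knockdown 3 was below control 2. The means were 31.5 ± 1.77 and 36.5 ± 3.96 CPM, and the log2 fold change of 0.21 (SE 0.0842, 95% interval 0.03 to 0.39) did not pass the test (adjusted p = 0.0746). Without the library knockdown 3, the lowest of its group, it passed, with a log2 fold change of 0.29 and an adjusted p of 0.0161. Taking out the lowest knockdown library raises the difference by itself. It did not pass when any other library was left out (adjusted p from 0.0519 to 0.237), with a log2 fold change of 0.14 without knockdown 2. The ratio of ELOVL6 to ELOVL5 in counts per kilobase was 0.118, 0.127 and 0.126 in control and 0.150, 0.154 and 0.128 in knockdown libraries. The last of these lay just above the control range.

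SCD (ENSG00000099194, chromosome 10, 100347124 to 100364834, plus strand) is the stearoyl-CoA desaturase, which makes the monounsaturated palmitoleate and oleate. It was at 569.9, 586.3 and 579.1 CPM in control and at 410.8, 408.6 and 395.2 CPM in knockdown libraries. The libraries of each group lay close together and the groups were well apart. The mean fell from 578 ± 8.23 to 405 ± 8.43 CPM (log2 fold change -0.51, SE 0.0473, 95% interval -0.61 to -0.41, adjusted p = 5.03e-07), the smallest adjusted p of the 10 genes. The processed pseudogene SCDP1 had 1 to 8 counts per library. SCD acts on the products of FASN, and the ratio of SCD to FASN was 1.72, 2.04 and 1.81 in counts per kilobase in control and 1.65, 1.87 and 1.53 in knockdown libraries. That ratio overlapped between groups (1.86 ± 0.164 and 1.69 ± 0.174).

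FADS1 and FADS2 are neighbours on chromosome 11 and act in turn on polyunsaturated chains, FADS2 at the entry step and FADS1 later, where arachidonate is formed. FADS1 (ENSG00000149485, 61799625 to 61829318, minus strand) was at 160.3, 155.0 and 166.9 CPM in control and at 119.8, 115.4 and 113.5 CPM in knockdown libraries. No library of one group reached the range of the other. The mean fell from 161 ± 5.96 to 116 ± 3.24 CPM (log2 fold change -0.47, SE 0.0548, 95% interval -0.58 to -0.35, adjusted p = 7.64e-06).

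FADS2 (ENSG00000134824, chromosome 11, 61792980 to 61867354, plus strand) was at 46.4, 44.97 and 43.8 CPM in control and at 31.1, 29.5 and 33.5 CPM in knockdown libraries. All knockdown libraries were again below all control libraries. The mean fell from 45.1 ± 1.29 to 31.4 ± 2.02 CPM (log2 fold change -0.52, SE 0.0716, 95% interval -0.67 to -0.37, adjusted p = 3.90e-05). The ratio of FADS1 to FADS2 in counts per kilobase was 3.72, 3.71 and 4.11 in control and 4.15, 4.22 and 3.65 in knockdown libraries, and these overlapped. The genes lie on opposite strands and share 490 exonic bases, which are 4.79% of FADS1 and 4.44% of FADS2. The strand setting of the counting is not given in the sources used here, so reads from those bases cannot be assigned to one gene. FADS2 also shares 49 exonic bases with FEN1 on the same strand, and its pseudogene FADS2P1 had 0 counts.

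**Figure D3:**
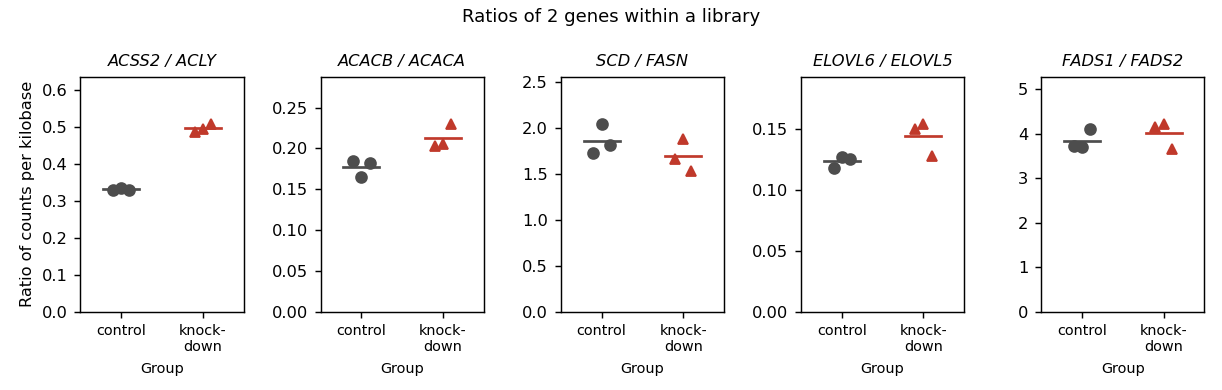
Ratio of counts per kilobase between the paired genes of a step within each library, 3 control and 3 knockdown libraries per panel, each axis starting at 0. The ACSS2 to ACLY ratio moved from 0.332 to 0.497, whereas the SCD to FASN and FADS1 to FADS2 ratios overlapped between groups.

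Exonic length here joins all annotated exons of a gene, 5362 bases for SCD, 10230 for FADS1 and 11026 for FADS2. Which transcripts the cells used was not determined, so the order of genes and the percentiles depend on that length. On the scale of CPM per kilobase of exonic length, SCD was the highest of the 10 genes in control libraries at 107.9, above 98.6% of the genes tested. ACLY at 59.8 and FASN at 58.4 followed and overlapped between libraries. ELOVL5 at 34.9, ACSS2 at 19.8, FADS1 at 15.7 and ACACA at 9.34 CPM per kilobase formed the middle of the order, each separate from its neighbours. ELOVL6 at 4.31 and FADS2 at 4.09 overlapped, and ACACB was the lowest at 1.65 CPM per kilobase, in the 35.5th percentile. The mitochondrial-surface carboxylase was thus the only 1 of the 10 below the middle of all tested genes in control libraries.

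The order was the same in knockdown libraries, with SCD at 75.5, ACLY at 50.8, FASN at 45.1, ELOVL5 at 34.6 and ACSS2 at 25.3 CPM per kilobase. FADS1 was at 11.4, ACACA at 9.01, ELOVL6 at 4.997, FADS2 at 2.84 and ACACB at 1.91 CPM per kilobase, and no neighbours overlapped there. FADS2 was below the middle of all tested genes in these libraries, in the 43.8th percentile. Summed over the 10 genes, the level was 2094, 2011 and 2075 CPM in control and 1716, 1639 and 1711 CPM in knockdown libraries. FASN and SCD together held 54.1 to 54.9% of that sum in control and 48.2 to 49.5% in knockdown libraries.

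Genes around the pathway were described from 8 lists, 69 genes in all, of which 64 were tested. Of these 8 were higher and 16 lower, beside 13.3% higher and 11.9% lower among all genes tested, and the median log2 fold change was -0.05, beside 0.00 over all genes tested. The counts of the single lists are read against the same shares. Lists of 5 to 9 tested genes had 1 or 2 calls each, too few to be set apart from the 25.2% called among all genes tested. Those calls are values of the named genes and not a result about the list. The list with most calls was the transcriptional control of lipogenesis, with 2 of 14 genes higher and 7 lower and a median of -0.16. SREBF1, which encodes the sterol regulatory element binding protein that drives lipogenic genes, was at 161.4, 144.8 and 158.8 CPM in control and at 109.8, 105.1 and 115.3 CPM in knockdown libraries. The groups were separate, and the mean fell from 155 ± 8.90 to 110.1 ± 5.13 CPM (log2 fold change -0.49, SE 0.0598, adjusted p = 1.09e-05). SREBF2, its partner for cholesterol synthesis, fell from 205.8 ± 6.98 to 175.6 ± 7.10 CPM (log2 fold change -0.23, SE 0.0540, adjusted p = 0.00473).

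INSIG1, which holds these proteins back in the endoplasmic reticulum and is itself one of their targets, was at 81.4, 85.0 and 84.8 CPM in control and at 48.0, 46.8 and 45.2 CPM in knockdown libraries. Its mean fell from 83.7 ± 2.06 to 46.7 ± 1.41 CPM (log2 fold change -0.84, SE 0.0605, adjusted p = 2.35e-08), a greater change than that of any of the 10 enzymes. MLXIPL, the carbohydrate-responsive activator ChREBP, rose from 15.1 ± 1.39 to 22.1 ± 0.814 CPM (log2 fold change 0.55, SE 0.0899, adjusted p = 2.19e-04). INSIG2 was also called higher, and NR1H2, MLX, USF1 and USF2 were called lower. The genes that moved therefore include activators that fell (SREBF1 and SREBF2) and 1 that rose (MLXIPL), with INSIG1 lower and INSIG2 higher.

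Among the 5 genes of citrate export and NADPH supply, 1 was higher and 1 lower, beside 25.2% called among all genes tested, with a median log2 fold change of 0.02. ME1, the cytosolic malic enzyme, rose from 53.3 ± 3.21 to 64.1 ± 2.27 CPM (log2 fold change 0.27, SE 0.0655, adjusted p = 0.00611). PGD, of the pentose phosphate pathway, fell from 131.8 ± 1.58 to 114.8 ± 1.82 CPM (log2 fold change -0.20, SE 0.0527, adjusted p = 0.00985). Both enzymes make the NADPH that FASN uses.

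Of the 9 tested genes that control the carboxylases, 1 was higher and 1 lower (median -0.05), and THRSP had 0 counts. PRKAA1, a catalytic subunit of the AMP-activated kinase that inhibits ACACA and ACACB, fell from 117 ± 10.005 to 86.6 ± 6.80 CPM (log2 fold change -0.44, SE 0.0707, adjusted p = 2.00e-04). PRKAB2, a regulatory subunit of the same kinase, was at 37.5 ± 1.29 and 43.8 ± 3.22 CPM (log2 fold change 0.22, adjusted p = 0.0317). That call was lost without control 1, control 3, knockdown 1 or knockdown 2, with adjusted p-values of 0.0889, 0.138, 0.113 and 0.0966.

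Of the 8 tested genes of the remaining elongation cycle, 1 passed the test and was lower (median -0.09), and ELOVL2, ELOVL3 and ELOVL4 were below the filter on low counts. HACD2, a dehydratase of the cycle, had a log2 fold change of -0.18 (SE 0.0575, adjusted p = 0.0295). Its call was lost without control 2, control 3, knockdown 1 or knockdown 3, with adjusted p-values of 0.0851, 0.111, 0.0683 and 0.0999. HACD4, named because its point stands apart in the plot of the lists, had 2 to 23 counts per library and did not pass (adjusted p = 0.143).

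The 5 genes of the other desaturases and their electron donors had 1 higher and 1 lower member (median -0.08). SCD5, the second stearoyl-CoA desaturase, fell from 40.5 ± 1.30 to 32.6 ± 3.10 CPM (log2 fold change -0.31, SE 0.0775, adjusted p = 0.00662), and without knockdown 1 its adjusted p was 0.0508. CYB5R3, a reductase that feeds electrons to SCD, FADS1 and FADS2, rose from 61.1 ± 5.68 to 76.3 ± 7.55 CPM (log2 fold change 0.32, SE 0.0793, adjusted p = 0.00680). The desaturases that were called and this electron donor thus changed in opposite directions.

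Mitochondrial fatty acid synthesis, a separate route, had 1 of 6 genes past the test (median 0.02), its acyl carrier protein NDUFAB1, which fell from 51.2 ± 1.59 to 41.8 ± 0.429 CPM (log2 fold change -0.29, SE 0.0640, adjusted p = 0.00257). Of 11 tested genes of acyl-CoA formation, uptake and binding, 2 were higher and 3 lower (median -0.08), beside 13.3% higher and 11.9% lower among all genes tested. CD36 had 0 to 2 counts per library. ACSL6, a long-chain acyl-CoA synthetase, was at 6.65, 7.22 and 6.90 CPM in control and at 15.8, 17.1 and 14.7 CPM in knockdown libraries. It rose by a log2 fold change of 1.197 (SE 0.104, adjusted p = 2.48e-07), the greatest fitted rise among the 64 list genes that were tested. SLC27A1, a fatty acid transport protein, rose from 28.5 ± 4.003 to 42.5 ± 3.71 CPM (log2 fold change 0.58, SE 0.0941, adjusted p = 2.25e-04).

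ACSL3, a synthetase linked to lipid droplets, fell from 117 ± 7.05 to 95.6 ± 3.27 CPM (log2 fold change -0.29, SE 0.0599, adjusted p = 0.00160), and SLC27A2 and SLC27A4 were also called lower. Glycerolipid acylation had 1 of 6 genes higher and 1 lower (median 0.07). DGAT2, which completes triacylglycerol, rose from 13.4 ± 0.546 to 17.6 ± 0.582 CPM (log2 fold change 0.39, SE 0.0884, adjusted p = 0.00360). LPIN1, a phosphatidate phosphatase of the step before it, fell from 78.9 ± 2.59 to 65.6 ± 2.64 CPM (log2 fold change -0.27, SE 0.0603, adjusted p = 0.00345).

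**Figure D4:**
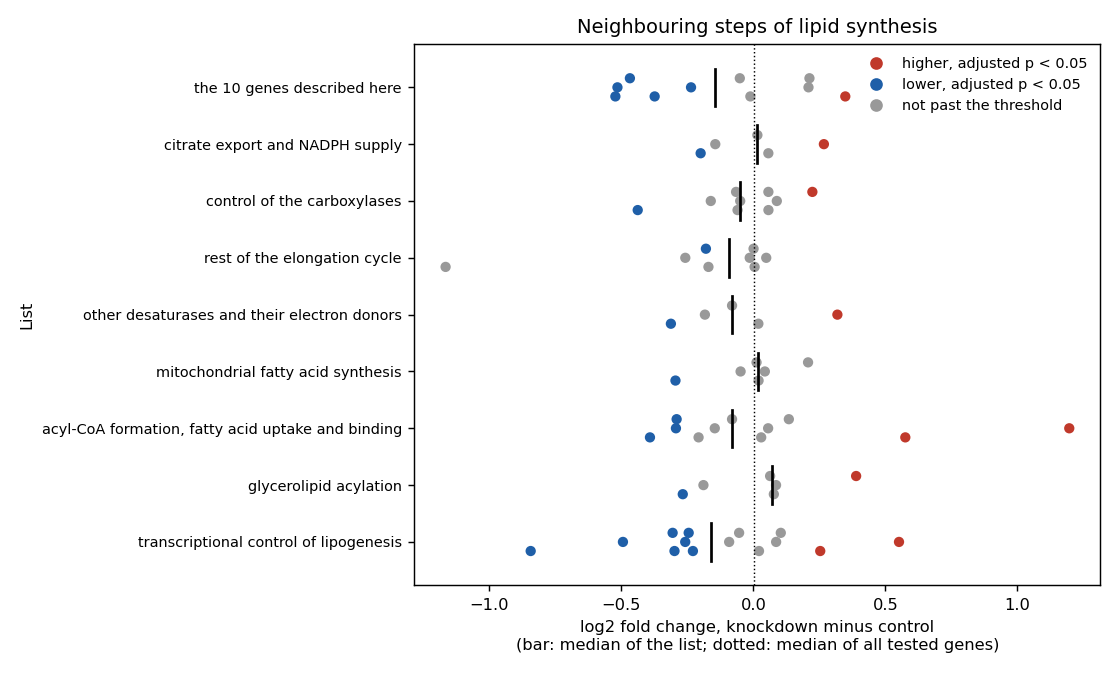
log2 fold change, knockdown minus control, of the 10 genes and of each tested gene in the 8 neighbouring lists, coloured by the edgeR call, with a bar at each list median and a dotted line at the median of all tested genes. The 10 genes (median -0.14) and the transcriptional list (median -0.16) lie furthest to the left, and ACSL6 lies furthest to the right at 1.197.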

How the data were processed

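RNA-seq counts of 6 SW480 libraries were used. According to the labels, total RNA was isolated with TRIzol and libraries were made with a NEBNext Ultra RNA kit. The submitters' processing notes name CASAVA 1.8, fastp, HISAT2 2.0.5, featureCounts 1.5.0-p3, DESeq2 1.20.0 and GRCh38. The authors deposited raw counts per gene, without normalization, and the strand setting is not given in the sources used here. Positions match GENCODE release 29.

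The test used edgeR 4.0.16 in R 4.3.3 (filterByExpr with a minimum count of 10, TMM, glmQLFit and glmQLFTest, knockdown against control). Benjamini-Hochberg adjustment covered all 17574 genes tested, and genes with an adjusted p under 0.05 were called whatever their fold change. CPM per kilobase uses the gene length of the table. No library was a copy of another. Alternatives were DESeq2 1.42.0, RLE factors, other filters, cyclic loess offsets (limma 3.58.1), a replicate block and each library left out. In simulated counts for this comparison (17280 genes) edgeR recovered 39 of 100 genes at a log2 fold change of 0.3 and 99 of 100 at 1, and called 4 of 17080 unchanged genes.

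The genes and lists were chosen with earlier results of these data known. Named were CNOT7, the 10 enzymes, SREBF1, SREBF2 and INSIG1, and up to 3 genes per list with the smallest p among those called. Promoters came from RefSeq, GRCh38.p14. Plots were drawn with matplotlib 3.10.9.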

Additional observations from a re-analysis of the deposited data

How the results depend on the processing

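The 5 enzymes called lower (ACLY, FASN, SCD, FADS1 and FADS2) and ACSS2, called higher, kept direction and call under all 12 alternatives. The number of the 10 genes called higher was 1, and 1 to 2 when a library was left out (ACACB without control 1, ELOVL6 without knockdown 3). With a replicate block it was 3, ACACB and ELOVL6 being added with adjusted p-values of 0.0123 and 0.00699. The numbers do not show a pairing through all libraries (correlations of same-numbered libraries 0.0228, 0.153 and -0.0153). The libraries numbered 2 had the highest correlation of all pairs, whereas control 1 correlated best with knockdown 3, at 0.132. What the libraries numbered 2 share was not tested. Over all alternatives the adjusted p ranged from 0.0123 to 0.207 for ACACB and from 0.00699 to 0.237 for ELOVL6. The sign turned, without a call, for ACACA with cyclic loess offsets (0.00052) and for ELOVL5 with the same offsets (0.042) and without control 2 (0.0034, with -0.033 to 0.0034 over all libraries left out in turn). The causes were not tested. The median of the 10 genes ranged from -0.17 to -0.08. The lists around the pathway gave 6 to 10 genes higher and 11 to 21 lower, the upper ends with the replicate block. Over all genes the block called 3306 lower in place of 2095, and leaving out control 3 called 1367. PRKAB2 was also lost without a filter on low counts (adjusted p = 0.0604) and HACD2 with cyclic loess offsets (adjusted p = 0.105).

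The log2 fold changes of ACACB and ELOVL6 (0.21 each) were smaller than the 0.3 at which edgeR recovered 39 of 100 genes in simulated counts. The simulation changed only 100 genes at 0.3 and 100 at 1, whereas 25.2% of the genes tested were called here. Adjustment is less strict when more genes change, so 39 of 100 may understate the recovery in these data. With 3 libraries per group a missed call still does not show that ACACB and ELOVL6 were unchanged.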
